A study of Mus musculus with 2 samples.

Results

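The 10 genes described here control blood clotting and clot removal at cell surfaces. They were taken as a fixed list of gene symbols, 10 of the 54438 genes to which the deposited transcripts could be summed, and their 48 annotated transcripts were also read one by one. The list holds the thrombin receptor Thbd, the protein C receptor Procr, the inhibitors Tfpi and Tfpi2, the clotting initiator F3, the clotting cofactor F8, the platelet adhesion protein Vwf, the plasminogen activators Plat and Plau, and the Plau receptor Plaur. The labels describe wild type C57BL/6 mice aged 8 weeks, whose mammary gland basal cells were isolated by flow sorting and profiled by Smart-seq II, which copies whole transcripts from little RNA. The series concerns basal cells that carry Pd-l1 and those that do not, and holds 2 libraries, called W1 and W2 after their titles. Their other labels are the same, so neither library could be placed in a Pd-l1 class, and the values below describe 2 libraries side by side, with no replicate and no p-value. Sources used here give neither the gates nor the number of animals behind a library.

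Tissue factor, the product of F3, starts clotting when it meets factor VII of the blood, and the inhibitor encoded by Tfpi blocks that step. Endothelial cells normally carry thrombomodulin (Thbd), which binds thrombin and turns it towards protein C, and the endothelial protein C receptor (Procr), which presents protein C to that complex. Fibrin is removed by plasmin, which tissue-type (Plat) and urokinase-type (Plau) plasminogen activators release from plasminogen. In the mouse mammary gland Procr is also used as a marker of a population of multipotent stem cells.

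The label was checked against cell type markers first. The 9 basal epithelial markers summed to 14.6 TPM (transcripts per 1000000) in W1 and 39930.5 TPM in W2, with 3 of the 9 at 0 reads in W1 and 1 of the 9 in W2. The 11 endothelial markers summed to 4794 TPM in W1 and 8.22 TPM in W2, where 8 of the 11 had 0 reads. With W1 given before W2, luminal epithelial markers (9 genes) summed to 7.76 and 4347 TPM, fibroblast markers (7) to 3.19 and 206 TPM, leukocyte markers (7) to 88.7 and 7.17 TPM, pericyte markers (6) to 59.3 and 51.3 TPM, and markers of platelets and their precursors (6) to 4.99 and 0.677 TPM. The 7 lymphatic endothelial markers summed to 13139.4 TPM in W1 and 8078 TPM in W2, of which Ccl21a held 10177 and 7543 TPM. Among these markers 0 of 7 had 0 reads in W1 and 4 of 7 in W2. Lyve1, Prox1 and Flt4 stood at 2408, 75.3 and 40.5 TPM in W1 against 0 reads each in W2. Others did not follow them: Pdpn stood at 438 TPM in W1 and 531 TPM in W2, and Reln at 0.056 and 4.43 TPM. Mmrn1 had 3 reads in W1 and 0 in W2. Basal markers were therefore nearly absent from W1, and the basal keratin Krt5 had 0 reads there. Each difference below lies between libraries that also differ in these markers, and the part of the markers in it was not tested. Fewer cells of a type and less RNA per cell cannot be told apart in such samples.

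The steps between deposited values imply 3055840 counted reads for W1 and 3800030 for W2. The 95% intervals in brackets are exact for the reads, and they hold counting error alone, as no molecular identifiers are named. Where a gene has reads on several transcripts, its TPM interval gives each read the same weight and is approximate. A library with 0 reads on an item was given a floor of 3 reads, and every fold below, from reads or from the floor, is scaled to TPM. A fold from the floor leaves out counting error in the other library, so the exact 95% limit is given beside it. Few reads were counted on transcripts with little sequence of their own, so the own sequence of each transcript is given, as the number of 50-mers found in no other listed transcript. Of the 48 transcripts of the 10 genes, 16 had fewer than 50 own 50-mers, and 0 of these 16 had a read in either library. Of the other 32 transcripts, 17 had reads.

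**Figure D1:**
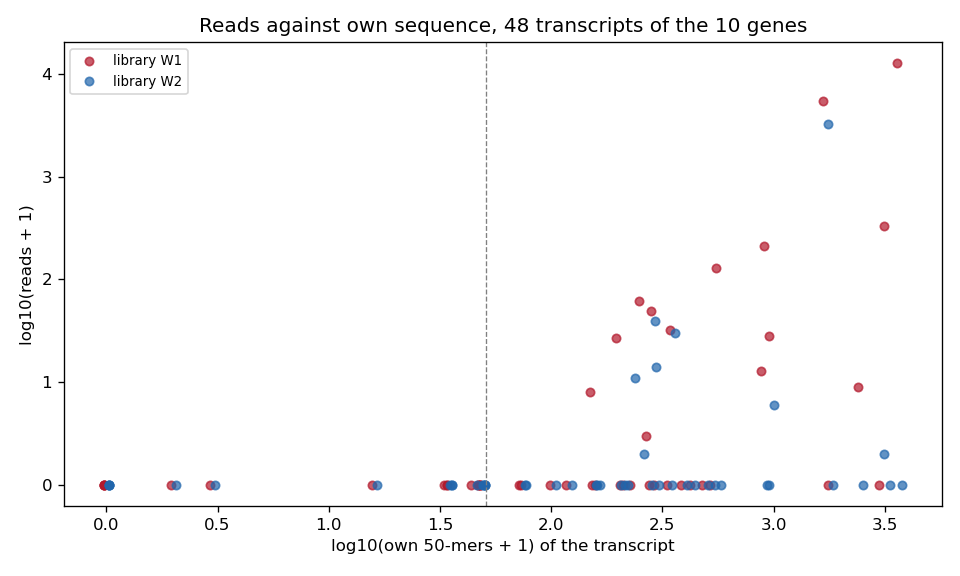
Reads counted on each of the 48 transcripts (log10 of reads + 1, vertical axis) against the number of its own 50-mers (log10 of the number + 1, horizontal axis); red points are W1 and blue points W2, drawn slightly apart. Left of the dashed line, at fewer than 50 own 50-mers, all points lie at 0 reads.

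The sequences shown first are those at the exon ends where the coding transcripts of Procr and Plaur are spliced and another annotated transcript runs on into the intron, since most reads of Procr and, in W1, of Plaur lay on the forms that run on. Each line below gives the last 15 bases of the exon in lower case and the next 15 bases of the transcript in capitals, 5′ to 3′ on the plus strand, from the GENCODE M21 transcripts on GRCm38. In Procr the exon end is chr2:155754513-155754527, and the bases in capitals come from chr2:155754769-155754783 when spliced and from chr2:155754528-155754542 when the intron is kept. In Plaur the exon end is chr7:24472693-24472707, followed by chr7:24474210-24474224 or by chr7:24472708-24472722.
Procr-201: cgcaaaacatgaaagGGAGCCAAACAGGTC
Procr-203: cgcaaaacatgaaagGTCTGAGGGGATTCT
Plaur-201: gcaatggtggcccagTTCTGGATCTTCAGA
Plaur-202: gcaatggtggcccagGTGAGGAGCAGGAAA
The intron of Procr that Procr-203 keeps is 241 bases long, and the intron of Plaur into which Plaur-202 runs is 1502 bases long.

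Of the 10 genes, 7 reached 1 TPM in W1, in W2 or in both and could be compared, while Tfpi, F8 and Vwf stayed under that level. On the scale of TPM + 1, 5 genes (Thbd, Procr, Tfpi2, Plau and Plaur) were 2-fold or more higher in W1, 1 gene (F3) was 2-fold or more higher in W2, and Plat lay just within 2-fold. Of all 12587 genes compared in the same way, 34.7% were higher in W1 by this rule and 32.9% higher in W2. The median log2 ratio of W1 over W2 was 1.64 for the 7 genes and -0.07 for all 12587. A gene that passed the level through 1 library alone had to differ, so these counts describe the 7 genes and support nothing further.

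**Figure D2:**
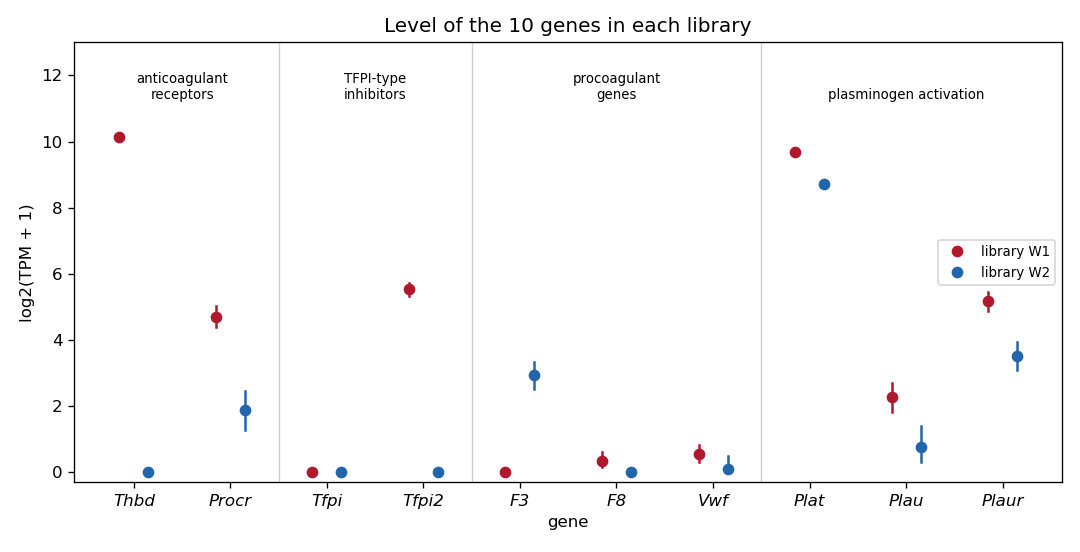
Level of the 10 genes as log2(TPM + 1), in red for W1 and in blue for W2, with bars for the 95% counting interval where reads were present. Thbd and Plat stand highest in W1 and Plat highest in W2, while F3 has reads in W2 only.

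Thbd, the thrombin receptor of the protein C pathway, showed the clearest separation. The gene (ENSMUSG00000074743.4, chr2:148404466-148408188, minus strand) has 1 exon and 1 listed transcript, Thbd-201, whose 3674 50-mers are all its own, so its count does not depend on isoforms. It stood at 1119.5 TPM in W1 (interval 1100.1 to 1139.2), from 12629 reads, against 0 reads in W2. With the floor of 3 reads the level was 4238-fold higher in W1, with an exact lower limit of 3446-fold.

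Procr, the protein C receptor and stem cell marker (ENSMUSG00000027611.12, chr2:155751117-155755471, plus strand), was also higher in W1, but nearly all its reads lay on transcripts that hold intron sequence. The sum over its 4 transcripts was 25.1 TPM in W1 (19.8 to 31.4), from 76 reads, and 2.65 TPM in W2 (1.41 to 4.53), from 13 reads. The ratio of these reads, scaled to TPM, was 5.89-fold (3.24 to 11.6), while the summed TPM differed 9.48-fold, for which no interval is given. Per 1000000 counted reads the gene had 24.9 reads in W1 and 3.42 in W2.

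The coding transcript Procr-201 had 2 reads in W1 and 0 in W2. Procr-203, the non-coding form that keeps the intron shown above, had 48 reads in W1 and 13 in W2, a ratio of 3.72-fold (1.98 to 7.48). In total both forms have nearly the same amount of own sequence, 274 50-mers in Procr-201 and 287 in Procr-203, but it lies in different places. Of the own 50-mers of Procr-201, 225 lie in its first 274 bases and 46 span the splice shown above. All 287 of Procr-203 lie at the kept intron. The 2 counts therefore do not compare the spliced and the kept intron on equal terms.

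Procr-204, which runs from the second coding exon into the following intron, had 26 reads in W1 and 0 in W2. In all, 97.4% of the Procr reads in W1 (90.8 to 99.7) and 13 of 13 in W2 lay on transcripts whose own sequence reaches outside the exons of Procr-201. How reads on sequence that Procr-201 shares with the other forms were counted is not stated. The amount of the coding form is therefore known only from those 2 reads.

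The inhibitors differed from each other in what could be seen. Tfpi2, which encodes a secreted Kunitz-type inhibitor of plasmin and other proteases (ENSMUSG00000029664.10, chr6:3962595-3988919, minus strand), stood at 45.3 TPM in W1 (39.4 to 51.9), from 210 reads, against 0 reads in W2. With the floor, that is 70.5-fold higher in W1, with an exact lower limit of 56.8-fold. All 210 reads lay on Tfpi2-201, with 928 own 50-mers, and 0 lay on Tfpi2-202 and Tfpi2-203, which start farther upstream and have 214 and 33 own 50-mers.

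Tfpi, the inhibitor of the tissue factor complex (ENSMUSG00000027082.15, chr2:84432855-84476775, minus strand), had 0 reads in both libraries. Of its 10 transcripts, 4 have no own 50-mer and 8 have fewer than 50. The transcript Tfpi-206, with 530 own 50-mers, is the best readable of them. A gene counted in this way is not shown to be silent by 0 reads.

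Among the procoagulant genes F3, the tissue factor gene (ENSMUSG00000028128.13, chr3:121723537-121735048, plus strand), went the other way. It had 0 reads in W1 against 6.65 TPM in W2 (4.71 to 9.13), from 38 reads. With the floor F3 was 12.6-fold higher in W2, and the exact upper limit of W1 over W2 was 0.103. All 38 reads lay on the coding transcript F3-201, with 283 own 50-mers. F3 was thus the only compared gene of the list with a read in W2 and 0 in W1.

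Vwf, which encodes the protein that ties platelets to the vessel wall and carries factor VIII (ENSMUSG00000001930.17, chr6:125546774-125686679, plus strand), was near the limit of detection. It stood at 0.448 TPM in W1 (0.231 to 0.783), from 12 reads on the coding transcript Vwf-203, and at 0.074 TPM in W2, from 1 read on the intron-holding transcript Vwf-208. The coding transcript has 904 own 50-mers, 10.3% of its 50-mers, and had 0 reads in W2. The part of own sequence and of depth in these counts was not tested. Vwf is a standard marker of endothelial cells, and its level stands beside the 4794 TPM of the 11 endothelial markers in W1. Of that sum Plvap held 1957 and Cldn5 1590 TPM. Of the 11 markers, 9 were compared and higher in W1, while Tie1 and Tek had 2 and 1 reads there.

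F8, which encodes the cofactor factor VIII (ENSMUSG00000031196.13, chrX:75172715-75382615, minus strand), had 8 reads in W1, all on F8-201, a level of 0.27 TPM (0.117 to 0.532), against 0 reads in W2. With the floor, the level was 2.68-fold higher in W1, with an exact lower limit of 1.72-fold. Endothelial cells are known as the main source of factor VIII in mice. The sources used here do not say whether the counting used strand, so reads from the opposite strand of F8 cannot be told apart.

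Plat, the gene of tissue-type plasminogen activator (ENSMUSG00000031538.6, chr8:22757727-22782844, plus strand), was the only gene of the list with a high level in both libraries. It stood at 815 TPM in W1 (794 to 836), from 5956 reads, and at 423 TPM in W2 (409 to 438), from 3259 reads. The coding transcript Plat-201 alone was 1.70-fold higher in W1 (1.63 to 1.77), at 719 and 423 TPM in W1 and W2. The log2 ratio of the sum was 0.94, just within 2-fold. It moved to between 1.18 and 1.35 in 4 of 11 other settings, among them counted reads scaled to the library total. It fell to 0.65 without mitochondrial and ribosomal protein genes and to 0.76 on the transcript with the most reads.

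The libraries differed in the composition of Plat as well as in its level. Plat-202, which keeps introns of the middle part of the gene and ends within one, had 329 reads in W1 and 0 in W2. Plat-203, a short form made of part of the first exon and a piece of the first intron, had 129 reads in W1 and 0 in W2. Together they made up 7.69% of the Plat reads in W1 (7.03 to 8.40) and 0 of 3259 reads in W2, with an exact upper limit of 0.113%. This share compares transcripts within 1 library and does not depend on how the libraries were scaled.

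Over all genes, transcripts annotated as retained introns held 2.70% of the recovered reads in W1 and 1.14% in W2. Processed transcripts, the annotated type of Procr-203 and Plat-203, held 1.24% in W1 and 0.886% in W2. Transcripts annotated for nonsense-mediated decay, the type of Plaur-206, held 0.407% and 0.416%. The part of these differences in the Procr, Plat and Plaur values was not tested.

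**Figure D3:**
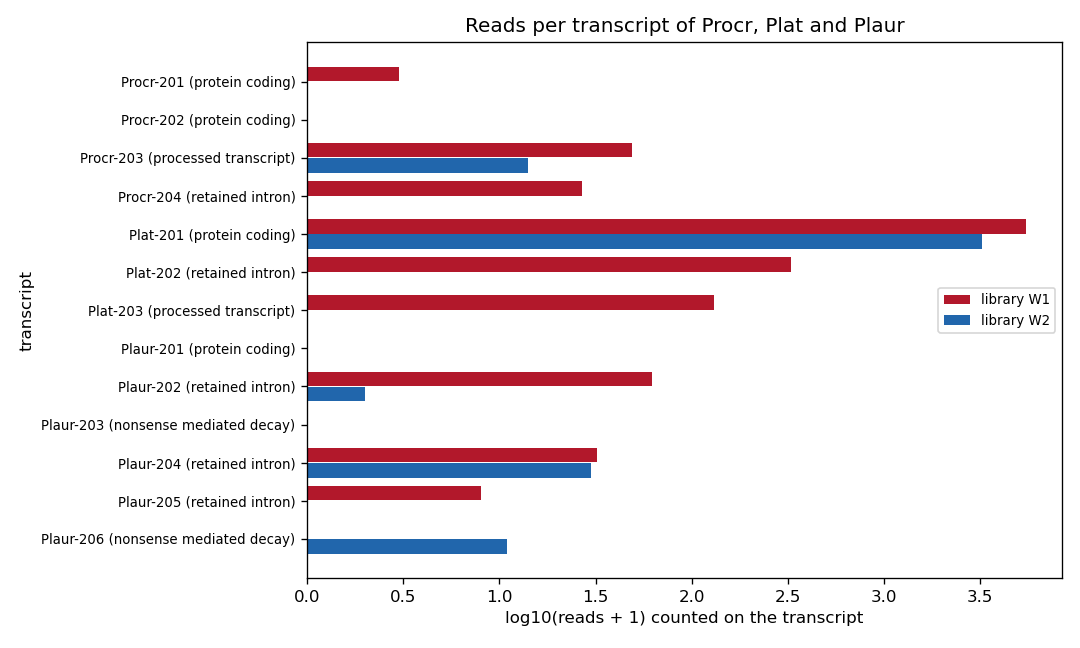
Reads counted on each listed transcript of Procr, Plat and Plaur, as log10(reads + 1), in red for W1 and in blue for W2, with the annotated transcript type in brackets. Plat-202 and Plat-203 have reads in W1 only, and the coding transcripts of Procr and Plaur have at most 2 reads.

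Plau, the gene of urokinase-type plasminogen activator (ENSMUSG00000021822.3, chr14:20836660-20843385, plus strand), was low. It stood at 3.81 TPM in W1 (2.51 to 5.54), from 27 reads, and at 0.70 TPM in W2 (0.227 to 1.63), from 5 reads. The ratio of 5.44-fold has a wide interval, from 2.06 to 18.1, and with a pseudocount of 5 the log2 ratio fell within 2-fold, at 0.63. All reads lay on the coding transcript Plau-201.

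Plaur, which encodes the receptor that holds urokinase at the cell surface (ENSMUSG00000046223.10, chr7:24462484-24475968, plus strand), had reads only on forms other than its coding transcript. Its coding transcript Plaur-201 has 1 own 50-mer and had 0 reads in both libraries. The sum over all 6 transcripts was 34.8 TPM in W1 (28.3 to 42.4), from 99 reads, and 10.5 TPM in W2 (7.53 to 14.3), from 40 reads. The ratio of these reads, scaled to TPM, was 2.49-fold (1.71 to 3.69), while the summed TPM differed 3.31-fold, for which no interval is given.

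The transcripts of Plaur did not move together. Plaur-202, which runs into the intron shown above, had 61 reads in W1 and 1 in W2, a ratio of 61.4-fold (10.6 to 2465). Plaur-204, which keeps the intron before that, had 31 reads in W1 and 29 in W2, a ratio of 1.08-fold (0.627 to 1.85). Plaur-206, a form annotated for nonsense-mediated decay, had 0 reads in W1 and 10 in W2. With the floor it was 3.31-fold higher in W2, and the exact upper limit of W1 over W2 was 0.449. The higher sum in W1 therefore rests on Plaur-202, and on Plaur-205 with 7 reads in W1 and 0 in W2.

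Levels of different genes were compared per own sequence, as reads per 1000 own 50-mers per 1000000 counted reads, on the transcript with the most reads in the library. In W1 Thbd-201 came first at 1125 (1105 to 1145), followed by Plat-201 at 1050.3 (1022.7 to 1078.5), with intervals that do not overlap. Plaur-202 at 78.9 (60.4 to 101.4), Tfpi2-201 at 74.1 (64.4 to 84.8) and Procr-203 at 54.7 (40.4 to 72.6) followed with overlapping intervals. Plau-201 at 9.03 (5.95 to 13.1) and Vwf-203 at 4.34 (2.24 to 7.59) overlapped as well, and F8-201 was lowest at 1.07 (0.461 to 2.10). In W2 Plat-201 led at 500.7 (483.6 to 518.1), followed by F3-201 at 35.3 (25.01 to 48.5) and Plaur-204 at 21.9 (14.6 to 31.4), whose intervals overlap. Procr-203 at 11.9 (6.35 to 20.4) overlapped Plaur-204 as well, and Plau-201 at 1.34 (0.436 to 3.14) and Vwf-208 at 0.0862 (0.00218 to 0.480) were lowest, again with overlapping intervals. This measure was chosen after the transcript values were seen, it treats exon and intron sequence alike, and it is not scaled to TPM, so ratios taken from it differ from the folds above.

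Promoter sequences from RefSeq on GRCm38.p6 were matched for 6 of the 10 genes, with 9 start sites. They are shown for F3, read in W2 only, and for the starts of Tfpi2-201, which held all Tfpi2 reads, and Tfpi2-203, which held 0. Each is the 250 bases before the start, 5′ to 3′ on the strand of the gene. Capitals mark matches on either strand to CACCC (the core bound by Krüppel-like factors), TGANTCA (AP-1) or TATAAA.
F3, chr3:121723287-121723536, plus strand: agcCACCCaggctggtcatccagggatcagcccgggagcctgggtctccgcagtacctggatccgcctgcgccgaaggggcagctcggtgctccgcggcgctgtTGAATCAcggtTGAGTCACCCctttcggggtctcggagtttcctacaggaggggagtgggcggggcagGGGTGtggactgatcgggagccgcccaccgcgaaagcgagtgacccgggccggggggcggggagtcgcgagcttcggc
Tfpi2-201 start, chr6:3968376-3968625, minus strand: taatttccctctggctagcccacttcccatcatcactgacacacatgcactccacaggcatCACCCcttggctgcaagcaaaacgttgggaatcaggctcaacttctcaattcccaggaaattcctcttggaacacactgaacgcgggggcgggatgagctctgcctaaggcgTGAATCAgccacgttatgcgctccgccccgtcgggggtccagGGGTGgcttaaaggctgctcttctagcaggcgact
Tfpi2-203 start, chr6:3988859-3989108, minus strand: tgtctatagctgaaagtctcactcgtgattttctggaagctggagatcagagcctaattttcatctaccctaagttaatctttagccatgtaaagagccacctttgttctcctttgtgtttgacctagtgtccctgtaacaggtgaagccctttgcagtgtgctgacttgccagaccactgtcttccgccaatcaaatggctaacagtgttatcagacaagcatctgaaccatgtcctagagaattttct

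The F3 window holds 3 CACCC matches and 2 AP-1 matches, and the second AP-1 match shares bases with a CACCC match. The Tfpi2-201 window holds 2 CACCC matches and 1 AP-1 match, 77 bases before the start, while the Tfpi2-203 window holds 0 matches. Over the 9 windows of the 6 genes, AP-1 matches were found in 4 (F3, Procr, Plaur and the Tfpi2-201 start), CACCC matches in 6 and TATAAA in 1. Of 32851 RefSeq promoter windows of the same length, 6.75% hold an AP-1 match, 52.0% a CACCC match, 12.4% a TATAAA match and 0.356% a match to the NF-kB motif, which 0 of the 9 windows held. A match describes letters only, and the genes with an AP-1 match include genes higher in either library.

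Other genes of clotting and fibrinolysis passed 2-fold in equal numbers on both sides in the main setting. Of 60 genes in 5 lists, 26 had 0 reads in both libraries and 29 could be compared, of which 13 passed 2-fold towards W1, 13 towards W2 and 3 lay within 2-fold. By the same rule 34.7% of all 12587 genes were higher in W1 and 32.9% higher in W2, and the counts per list below stand beside these shares. The balance depended on the setting, and so did the shares of all compared genes. The numbers higher in W1 and W2 were 6 and 11 with a pseudocount of 5, beside 16.8% and 19.9% of all compared genes. They were 13 and 10 without Gm23935, beside 40.3% and 27.2%. They were 12 and 15 without mitochondrial and ribosomal protein genes, beside 33.2% and 37.6%. The median log2 ratio of the compared list genes was -0.45, against -0.07 over all 12587 genes. Examples are the genes at 20 TPM or more, or the 3 highest of a list, and the other genes named are given because they complete a small count.

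In the list of anticoagulant genes 3 of 8 compared members were higher in W1 and 5 in W2. Pros1, the cofactor of activated protein C, stood at 63.7 TPM in W1 and 136 TPM in W2. Anxa5, which shields the lipids on which clotting factors assemble, stood at 245 and 526 TPM in W1 and W2. Both lay close to the 2-fold limit, with log2 ratios of -1.08 and -1.10. Gas6, a relative of protein S, stood at 99.5 TPM in W1 and 327 TPM in W2, and Vkorc1, the vitamin K reductase, at 7.50 and 23.2 TPM. Serpine2 was the other member higher in W2, and Serpinc1, Serpina10 and Ggcx were higher in W1.

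In the list of procoagulant factors and their helpers 12 of 17 members had 0 reads in both libraries, among them F2, F5, F7 and F10. Fgg, the gamma chain of fibrinogen, had 0 reads in W1 against 22.9 TPM in W2, from 120 reads. With the floor Fgg was 39.7-fold higher in W2, and the exact upper limit of W1 over W2 was 0.0314. Its partner Fga had 0 reads in W1 and 2 in W2, and Fgb had 0 in both. Lman1, a cargo receptor for factors V and VIII, stood at 20.9 and 38.5 TPM in W1 and W2, and the chaperone gene P4hb at 204 and 280 TPM, both within 2-fold.

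Of the 4 receptors that thrombin and related proteases cut, 2 were higher in W1, 1 was higher in W2 and 1 lay within 2-fold. F2r, the main thrombin receptor of many cells, stood at 157 TPM in W1 and 28.4 TPM in W2, a ratio of 5.53-fold (4.87 to 6.28). F2rl1, a receptor cut by trypsin-like proteases and by the tissue factor complex, had 0 reads in W1 against 13.04 TPM in W2, from 109 reads. With the floor F2rl1 was 36.1-fold higher in W2, and the exact upper limit of W1 over W2 was 0.0347. F2rl3 was within 2-fold, at 6.22 and 7.68 TPM in W1 and W2, and F2rl2 was higher in W1, at 4.35 TPM against 0 reads in W2. F2r and F2rl1 each have 1 listed transcript.

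In the plasminogen list 3 of 9 compared members were higher in W1 and 6 in W2. Plasminogen itself (Plg) had 0 reads in both libraries, with 3155 own 50-mers. S100a10, which forms a plasminogen-binding complex with annexin A2, stood at 202.8 TPM in W1 and 860.4 TPM in W2, and its partner Anxa2 at 2.95 and 16.7 TPM. Thbs1, a matrix protein that binds plasminogen, stood at 254 TPM in W1 and 819.6 TPM in W2. The members higher in W1 were Vldlr, with 130 reads in W1 and 43 in W2, the receptor gene Plgrkt, with 17 and 0, and Eno1, with 7 and 0. The exact lower limit for Eno1 was 1.45-fold, so that call rests on few reads.

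All 5 compared members of the list of platelet adhesion and its control were higher in W1. Selp, P-selectin, stood at 48.4 TPM in W1, from 470 reads, against 0 reads in W2. With the floor Selp was 158-fold higher in W1, with an exact lower limit of 128-fold. Entpd1, which removes the platelet activator ADP, stood at 24.4 and 6.64 TPM in W1 and W2, and the integrin gene Itgb3 at 20.03 and 3.85 TPM. Nos3 and Itga2b were the other members. Of the genes for the platelet receptor of Vwf, Gp1ba and Gp1bb had 0 reads in both libraries. Gp9 had 1 read in W1 and 0 in W2, and Gp5 had 0 reads in W1 and 6 in W2. Of the platelet marker sums given above, Itga2b, which is also in this list, held 4.05 of 4.99 TPM in W1 and all 0.677 TPM in W2. The platelet marker Pf4 had 1 read in W1 and 0 in W2, while Ppbp and Treml1 had 0 in both.

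**Figure D4:**
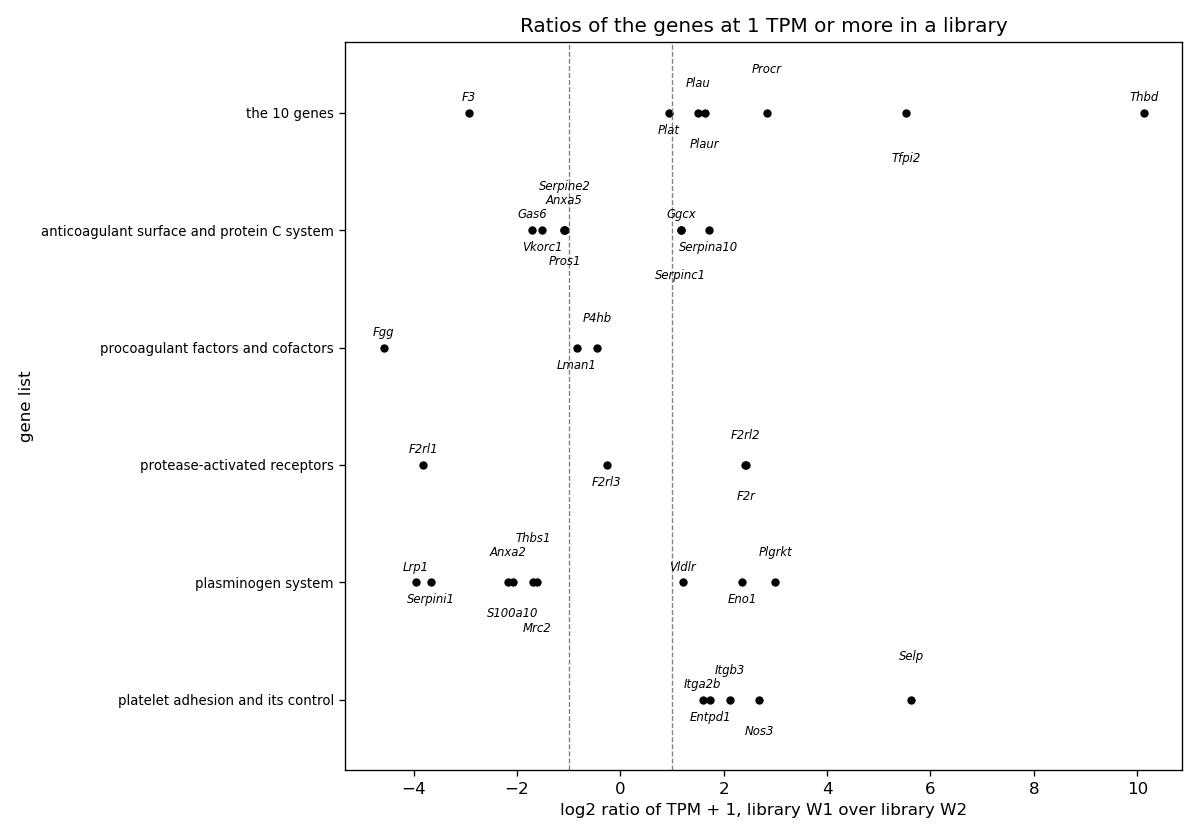
Log2 ratio of TPM + 1 in W1 over W2 for each gene that reached 1 TPM in W1 or W2, with the 10 genes on top and the 5 other lists below, and dashed lines at 2-fold. The 5 genes of the platelet list lie right of the upper line, while the anticoagulant and plasminogen lists spread to both sides.

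The scale of the libraries bears on genes near the limit. The short transcript of Gm23935, 57 bases long, made up 27.7% of the TPM of W1 and 4.13% of those of W2, although it held 1.57% and 0.189% of their counted reads. When TPM were rescaled without it, the median log2 ratio of all genes moved to 0.37 from -0.07, Plat passed 2-fold with a log2 ratio of 1.35, and Pros1, Anxa5 and Serpine2 no longer did. This setting was chosen after the share was seen.

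**Figure D5:**
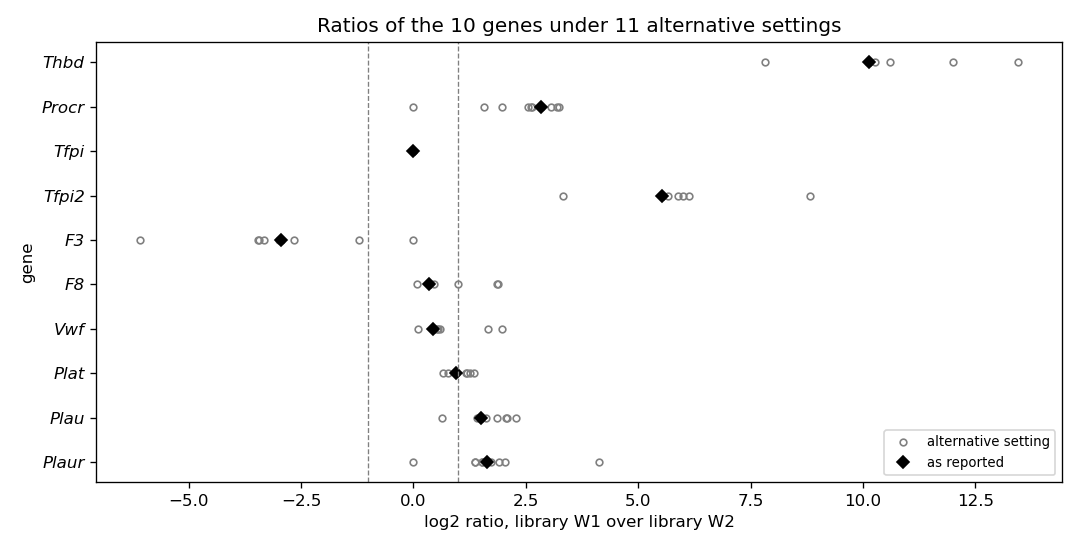
Log2 ratio of W1 over W2 for each of the 10 genes, as a filled diamond for the value as reported and as open circles for 11 other settings, with dashed lines at 2-fold. Thbd and Tfpi2 stay right of the upper line in all 11 settings, Plat lies on both sides of it, and the points of Procr, F3 and Plaur at 0 are those of a setting that leaves out all their transcripts with reads.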

How the data were processed

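Both libraries were left unassigned, since their labels differ only in the title. The submitters' processing notes name Bowtie 0.12.2, mm8 and GRCm38, with no role for either build. Sources used here do not give the counting tool, its annotation or its use of strand. The authors deposited TPM and FPKM for 137767 transcripts, of which 137654 matched GENCODE M21 on GRCm38 by identifier. Gene values are sums over transcripts. The deposited FPKM times transcript length falls on whole multiples of 1 read, which gave the reads: within 0.1 read, 98.5% and 98.1% of transcripts came out whole in W1 and W2. Depth is the total implied by the FPKM worth of 1 read, while the recovered reads sum to 3065849 and 3826943.

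The statistic was the log2 ratio of TPM + 1, which understates low genes, for genes that reach 1 TPM in either library, with a limit of 2-fold. Ratio and share intervals are Clopper-Pearson on reads, level intervals Poisson. Ratios of reads and floors are scaled to TPM, and a ratio of reads can differ from a ratio of summed TPM. The genes and lists were chosen with earlier results of these data known. All 10 genes are named, and list genes by level as stated. The steps were tested on simulated data. Python 3.11.15 was used, with matplotlib 3.10.9, pandas 2.3.3, scipy 1.17.1 and numpy 2.4.6.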

Additional observations from a re-analysis of the deposited data

How the results depend on the processing

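The number of the 10 genes 2-fold or more higher in W1 was 5. It was 8 on reads scaled to the library total, which added Plat, F8 and Vwf and is not corrected for length. In that setting 39.2% of all compared genes were higher in W1. The number was 3 with only transcripts of over 500 own 50-mers, beside 36.0% of all compared genes. The number higher in W2 was then 0, beside 31.0%, since Procr, Plaur and F3 have no transcript with reads in that setting. Of the 60 other genes, 6 rather than 13 were higher in W1 with a pseudocount of 5. The share of all compared genes was 16.8% rather than 34.7%. The other counts stayed within 1.5 times under the 11 settings, 2 of them added after the data were seen. The log2 ratio of Thbd ranged from 7.81 to 13.5 and that of Tfpi2 from 3.33 to 8.83. The median over all compared genes ranged from -0.31 without mitochondrial and ribosomal protein genes to 0.37 without Gm23935. No library could be left out, since each is alone, and no change of sign occurred among the 10 genes. Vwf, F8 and Plau had 12, 8 and 27 reads in W1. The coding transcripts Tfpi-201, Procr-201 and Plaur-201 have 0, 274 and 1 own 50-mers. The coding transcripts of Vwf, F3 and F8 have 10.3%, 15.5% and 25.2% own 50-mers. The part of depth and of own sequence in the counts was not tested.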
